A study of Mus musculus with 26 samples.

Results

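The voltage-gated calcium channel genes described here are 10: Cacna1a, Cacna1b, Cacna1c, Cacna1d, Cacna1e, Cacna1g, Cacna1h, Cacna1i, Cacna2d1 and Cacna2d3. They were chosen by name, as every peak that the authors assigned to 1 of these genes in any of 8 lists of open chromatin. They are 10 of 14548 protein-coding genes with a peak in at least 1 list, and their peaks merge into 221 of 94493 regions. The assay was ATAC-seq, where a transposase cuts and tags accessible DNA for sequencing, on nuclei of mouse D1 and D2 medium spiny neurons (MSNs). MSNs are the projection neurons of the striatum, and the D1 and D2 classes carry the dopamine receptors Drd1 and Drd2. By its title the study concerns the nucleus accumbens, a part of the striatum, while the labels name the tissue only as brain. The groups were D1 and D2 MSNs in cocaine relapse (CC, 4 and 1 libraries), after chronic cocaine with prolonged withdrawal (CS, 4 and 8 libraries), after acute cocaine (SC, 4 and 1 libraries) and at baseline (SS, 2 libraries each). Strain, age, sex, dose and the allele used to mark the nuclei are not given in the sources used here, and neither is the number of animals behind a library. Each group has 1 list and no column per library, and values therefore carry no replicate error. Every difference describes these lists, and intervals are 95% intervals that cover counting error only.

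Voltage-gated calcium channels open when the membrane depolarises and let calcium into the cell. A pore-forming α1 subunit sets the channel type, and auxiliary α2δ, β and γ subunits shape its traffic to the membrane and its gating. In striatal neurons, calcium entry through these channels shapes firing, transmitter release and calcium-dependent signalling to the nucleus. Cacna1a and Cacna1b encode the pores of the P/Q-type and N-type channels of nerve terminals, and Cacna1e that of the R-type channel. Cacna1c and Cacna1d encode L-type pores, which couple activity to transcription. Cacna1g, Cacna1h and Cacna1i encode T-type pores, which open at low voltage. Cacna2d1 and Cacna2d3 encode α2δ subunits.

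Cacna1c and Cacna1d each have several start sites in RefSeq, and open chromatin marked some of them and not others, so their sequences are shown first. Each is the 250 bases before a RefSeq start (build GRCm38.p6), written 5′ to 3′ on the gene's strand, which is the minus strand for both genes. Capitals mark letters of a GC box (GGGCGG on either strand) or a TATA motif (TATAAA on either strand), and overlapping matches run together.
Cacna1c, distal start, chr6:119196410-119196659: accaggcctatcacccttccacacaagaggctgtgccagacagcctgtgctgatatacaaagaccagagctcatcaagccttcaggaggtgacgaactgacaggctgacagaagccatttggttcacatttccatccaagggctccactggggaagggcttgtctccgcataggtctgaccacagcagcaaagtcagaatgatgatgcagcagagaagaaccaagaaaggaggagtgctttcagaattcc
Cacna1c, middle start, chr6:119108496-119108745: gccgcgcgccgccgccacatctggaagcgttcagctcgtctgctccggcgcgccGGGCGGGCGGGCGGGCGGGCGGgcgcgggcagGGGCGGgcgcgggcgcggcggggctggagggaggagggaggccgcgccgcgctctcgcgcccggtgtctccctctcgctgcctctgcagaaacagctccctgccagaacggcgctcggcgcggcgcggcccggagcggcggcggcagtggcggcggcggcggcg
Cacna1c, inner start, chr6:118757975-118758224: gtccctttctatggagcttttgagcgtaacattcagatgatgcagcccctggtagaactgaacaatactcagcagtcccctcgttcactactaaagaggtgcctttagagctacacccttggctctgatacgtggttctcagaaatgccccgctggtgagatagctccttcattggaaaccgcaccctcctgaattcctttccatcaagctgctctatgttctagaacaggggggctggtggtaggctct
Cacna1d, distal start, chr14:30491157-30491406: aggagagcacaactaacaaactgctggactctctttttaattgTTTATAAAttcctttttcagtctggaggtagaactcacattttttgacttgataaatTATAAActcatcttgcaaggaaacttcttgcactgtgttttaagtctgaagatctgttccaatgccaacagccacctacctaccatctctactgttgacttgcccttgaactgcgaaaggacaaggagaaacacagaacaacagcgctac
Cacna1d, inner start, chr14:30353487-30353736: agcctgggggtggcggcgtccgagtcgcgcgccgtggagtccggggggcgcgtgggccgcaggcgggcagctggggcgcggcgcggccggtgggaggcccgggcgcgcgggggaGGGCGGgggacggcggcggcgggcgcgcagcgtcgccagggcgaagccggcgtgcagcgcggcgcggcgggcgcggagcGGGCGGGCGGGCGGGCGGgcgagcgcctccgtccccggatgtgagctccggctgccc
The middle Cacna1c window, with 82.8% G and C and 6 GC box matches, overlapped a peak in all 8 lists. The inner Cacna1c window, with 50.4% G and C and 0 GC boxes, overlapped one in 5 lists (D1 CC, D1 CS, D2 CC, D2 SC and D2 SS). The distal Cacna1c window, with 51.6% G and C and 0 GC boxes, overlapped none. The start of Cacna1c that was open in every list was therefore the GC-rich one. For Cacna1d the inner window, with 86.4% G and C and 5 GC boxes, overlapped a peak in the same 5 lists, and the distal window, with 39.6% G and C and 3 TATA matches, overlapped none.

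The RefSeq table held starts for 7 of the 10 genes, and it held none for Cacna1a, Cacna1g and Cacna1h. Of the 10 start windows of those 7 genes, the 5 with a GC box lay at Cacna1b, Cacna1c, Cacna1d, Cacna2d1 and Cacna2d3 and overlapped a peak in 5 to 8 lists. The other 5 overlapped a peak in 0 lists (distal Cacna1c, distal Cacna1d and an inner start of Cacna1e), 5 lists (inner Cacna1c) and 7 lists (Cacna1i). The Cacna1e window, chr1:154725921-154726170, lies inside the gene and not at its annotated 5′ end. A region within 1 kb of an assigned start, chr1:154726453-154727082, lies near this window without overlapping it and was held by 6 lists. The window's 0 lists thus do not show that Cacna1e lacks open starts. Over all 32851 windows of the table, 32.7% held a GC box, and 69.8% of those overlapped a peak in 5 or more lists, against 19.8% of windows without one. Matches to the CRE (TGACGTCA), AP-1 (TGACTCA or TGAGTCA) and E-box (CACGTG) letters were searched on both strands in the same windows, and 0 were found at these genes. Among all windows, 1.55%, 4.46% and 6.02% held these letters. A match is a description of the sequence and a missing match says nothing of the factor.

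The lists differed in length, from 27917 peaks in D2 CS to 77103 in D1 CC, and their read depth is unknown here. They also fall into sets on a technical feature that the labels do not name: D1 CC, D1 CS, D1 SC and D2 CS held 70 to 137 peaks on patch scaffolds, and D1 SS, D2 CC, D2 SC and D2 SS held 4 to 7. The 8 of 16 comparisons made across these sets cannot tell technical set and group apart. All 5 pan-MSN markers checked had a peak in every list. Of 6 D1 MSN markers, 5 or 6 had a peak in every list, and of 6 D2 MSN markers 5 or 6 had one in every list except D1 SS, with 1. Of 32 markers of other cell types, 25, 19 and 9 had a peak in D1 CC, CS and SC, against 11 in D1 SS, and 17, 11 and 14 in D2 CC, CS and SC, against 17 in D2 SS. A peak at a marker does not show that the gene is expressed, and the part of other cells in the results below was not tested.

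**Figure D1:**
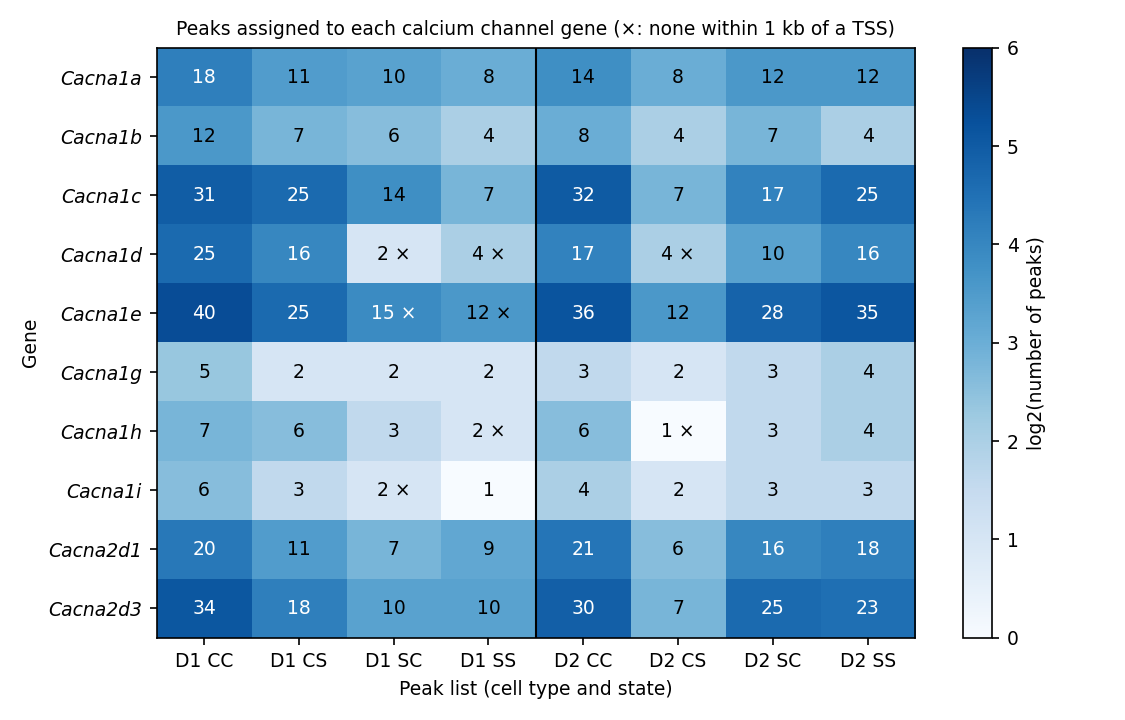
Number of peaks assigned to each calcium channel gene (rows) in each peak list (columns, D1 left and D2 right of the line, with the state after the cell type); colour is log2 of the number, and × marks no peak within 1 kb of a transcription start. Cacna1e had the most peaks in every list, tied with Cacna1c in D1 CS, and Cacna1d had the widest range as a ratio, from 2 peaks in D1 SC to 25 in D1 CC.

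The L-type pore gene Cacna1c, which spans 610.1 kb, held 31, 25 and 14 peaks in D1 CC, CS and SC, against 7 in D1 SS, and 32, 7 and 17 in D2 CC, CS and SC, against 25 in D2 SS. Those peaks covered 17169, 10187 and 4542 bp in D1 CC, CS and SC, against 2003 bp in D1 SS, and 15424, 2210 and 8819 bp in D2 CC, CS and SC, against 11517 bp in D2 SS. The fewest peaks were thus in D1 SS and D2 CS, lists of 28579 and 27917 peaks. D1 SC, with 28321 peaks in all, held 14 at Cacna1c.

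Of the 37 merged Cacna1c regions, 3 lay in all 8 lists. One was the middle start (chr6:119108244-119109585), whose fold enrichment over background ranked low in every list, with a median percentile of 21.5 of its list. The strongest region of the gene body was chr6:118977378-118978456, which lies 219.5 kb from the 5′ end of the gene. Its fold was 6.39, 5.53 and 7.14 in D1 CC, CS and SC, against 5.78 in D1 SS, and 5.62, 5.40 and 5.27 in D2 CC, CS and SC, against 6.23 in D2 SS. It lay between percentiles 53.4 and 79.1 of the 8 lists. The inner start (chr6:118757568-118758264) ranked at percentile 72.5 in D1 CC and 69.0 in D1 CS but at 49.7 in D2 CC, 42.5 in D2 SC and 36.3 in D2 SS. Percentiles of lists of different length do not measure a change.

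Cacna1d, the other L-type pore gene of this set (451.2 kb), held 25, 16 and 2 peaks in D1 CC, CS and SC, against 4 in D1 SS, and 17, 4 and 10 in D2 CC, CS and SC, against 16 in D2 SS. It had no peak within 1 kb of a start in D1 SC, D1 SS and D2 CS, the 3 shortest lists. Both peaks of Cacna1d in D1 SC were regions held by all 8 lists, chr14:30317909-30318916 and chr14:30196090-30196812, which lie 172.7 and 294.7 kb from the 5′ end. The first had a fold of 6.99, 7.36 and 8.01 in D1 CC, CS and SC, against 4.69 in D1 SS, and 8.05, 7.42 and 7.25 in D2 CC, CS and SC, against 6.19 in D2 SS. These intragenic elements ranked at median percentiles 83.4 and 80.0, whereas the inner start (chr14:30353280-30354145) ranked between 6.82 and 40.8 in the 5 lists that held it. At Cacna1d the highest ranked open regions, and the regions held by every list, lay inside the gene and not at its start.

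The P/Q-type pore gene Cacna1a (301.6 kb) held 18, 11 and 10 peaks in D1 CC, CS and SC, against 8 in D1 SS, and 14, 8 and 12 in D2 CC, CS and SC, against 12 in D2 SS. Of its 19 regions, 5 lay in all 8 lists. Its strongest region within 1 kb of an assigned start was chr8:84638881-84639922. That region lies 300.8 kb from the 5′ end, near the 3′ end of the gene, so the transcript that the authors assigned there is not the full-length one. A region at chr8:84414134-84414909, 75.9 kb from the 5′ end, ranked between percentiles 52.5 and 81.9 in the 8 lists. The strongest gene body region, chr8:84494555-84495344, ranked between 59.5 and 88.0.

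The N-type pore gene Cacna1b (159.3 kb) held 12, 7 and 6 peaks in D1 CC, CS and SC, against 4 in D1 SS, and 8, 4 and 7 in D2 CC, CS and SC, against 4 in D2 SS. Its start region (chr2:24761828-24763585) lay in all 8 lists with a fold of 5.42, 5.19 and 6.05 in D1 CC, CS and SC, against 4.16 in D1 SS, and 4.38, 5.73 and 4.55 in D2 CC, CS and SC, against 5.07 in D2 SS. With 1758 bp it was also wide. A gene body region 18.8 kb from the 5′ end (chr2:24744041-24744769) and 1 further region lay in all lists as well.

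Cacna1e, the R-type pore gene (494.0 kb), held 40, 25 and 15 peaks in D1 CC, CS and SC, against 12 in D1 SS, and 36, 12 and 28 in D2 CC, CS and SC, against 35 in D2 SS. It had the most merged regions, 44, of which 5 lay in all lists. All 5 were in the gene body, 28.9 to 318.5 kb from the 5′ end. The strongest, chr1:154565832-154566732, had a fold of 7.29, 6.71 and 7.24 in D1 CC, CS and SC, against 4.55 in D1 SS, and 6.14, 6.25 and 6.97 in D2 CC, CS and SC, against 6.27 in D2 SS. The 4 regions within 1 kb of an assigned start ranked low, with a mean percentile over the 8 lists of 13.7 at most when a missing peak counts as 0. The region at the annotated 5′ end of the gene (chr1:154884467-154884669) was held by D1 CC alone.

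**Figure D2:**
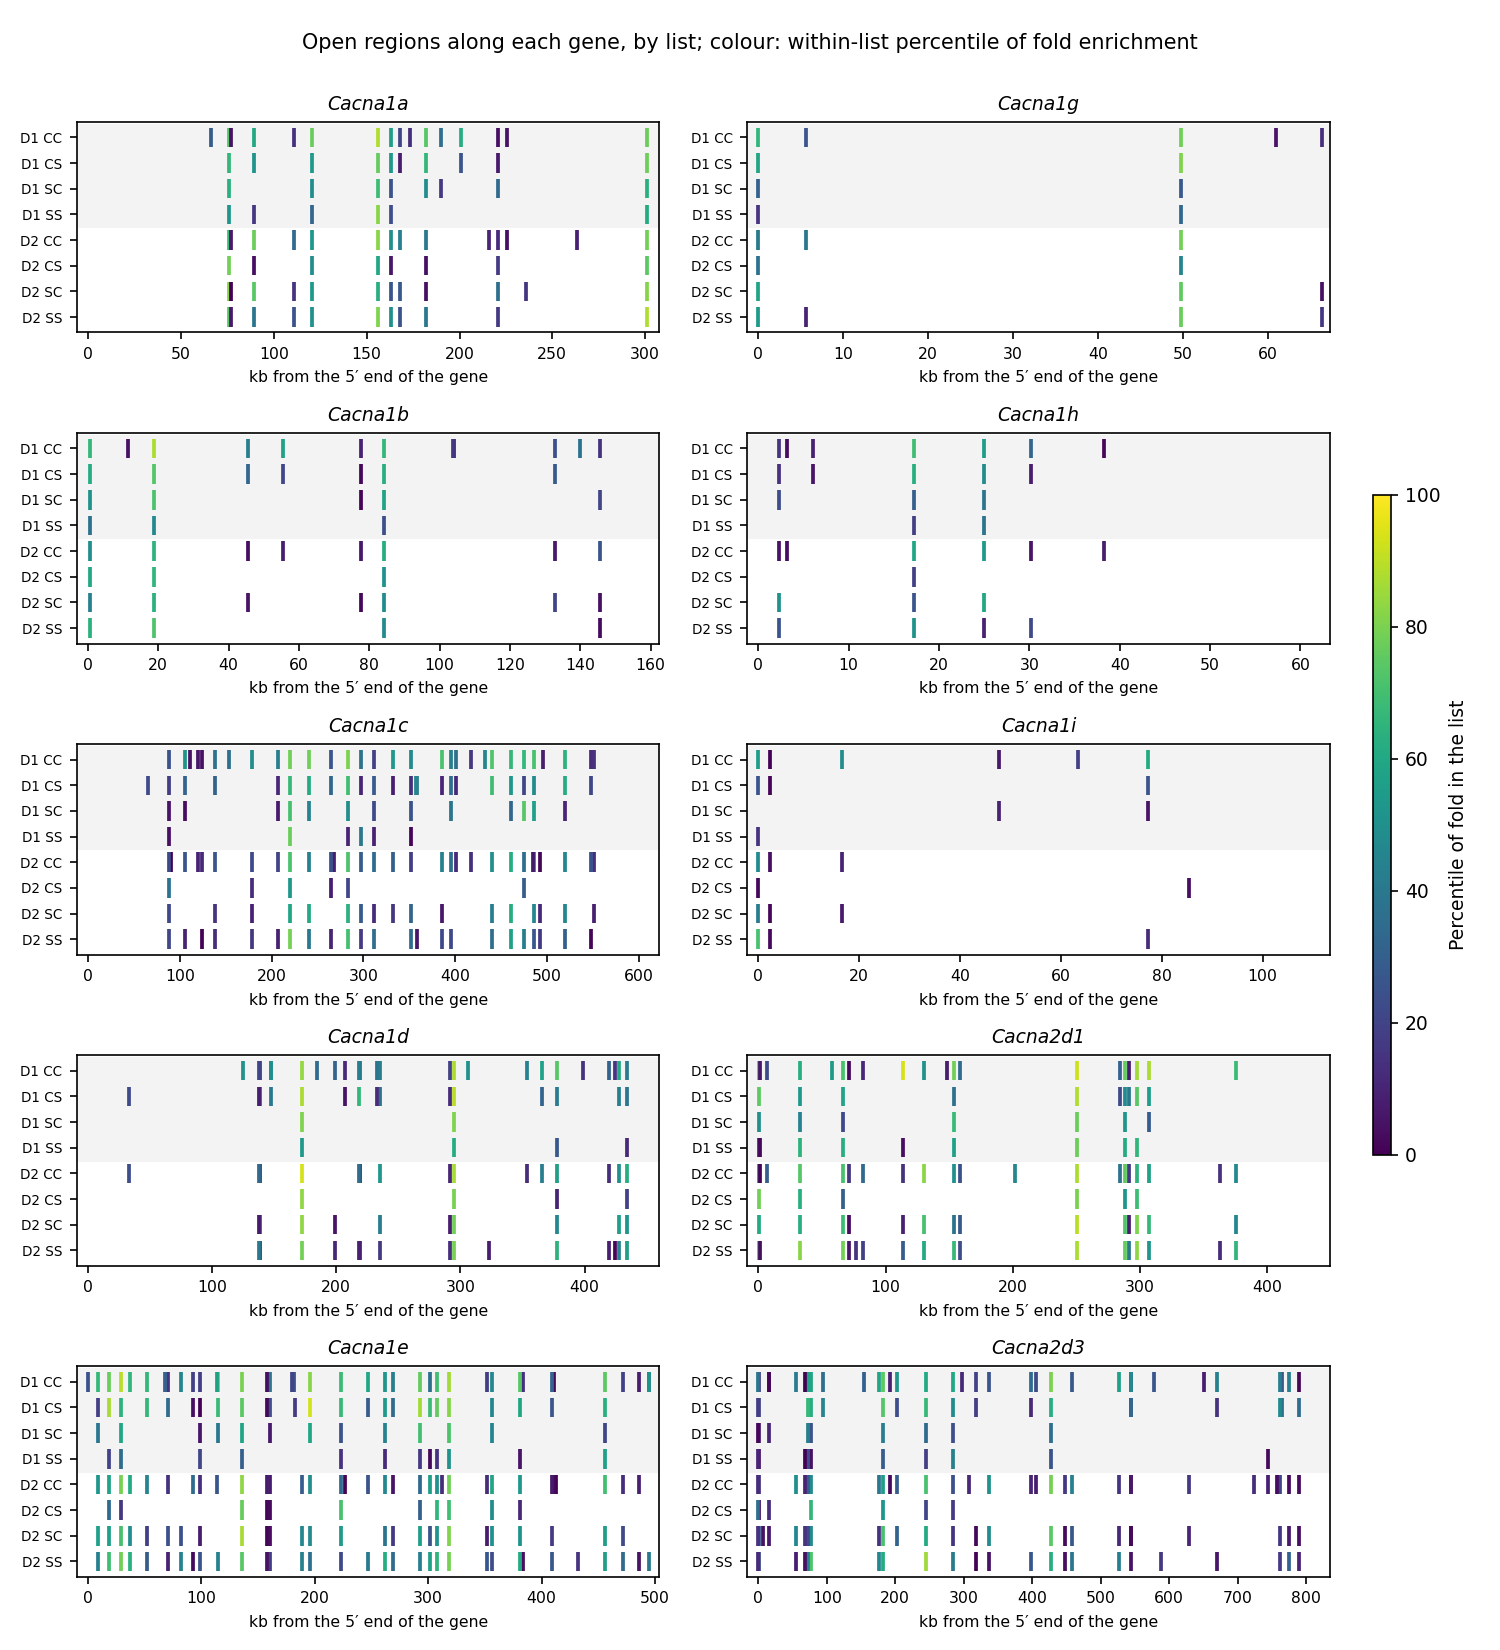
Merged open regions along each calcium channel gene, with distance from the 5′ end of the gene in kb on the horizontal axis and the 8 peak lists as rows (D1 lists on grey); colour is the percentile of the peak's fold enrichment within its own list. Vertical runs of 8 marks are the 32 regions held by every list, such as those of Cacna1d at 172.7 and 294.7 kb and of Cacna2d1 at 250.1 kb.

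The T-type pore genes are shorter and held few peaks. Cacna1g (66.0 kb) had 5, 2 and 2 peaks in D1 CC, CS and SC, against 2 in D1 SS, and 3, 2 and 3 in D2 CC, CS and SC, against 4 in D2 SS. Every list held the same pair of start regions of Cacna1g, chr11:94474074-94474713 at its 5′ end and chr11:94424230-94425016, which lies 49.8 kb inside. The inner one was the stronger in mean percentile over the lists, 62.0 against 45.0, and ranked between 27.5 in D1 SC and 81.0 in D1 CS.

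Cacna1h (62.0 kb) had 7, 6 and 3 peaks in D1 CC, CS and SC, against 2 in D1 SS, and 6, 1 and 3 in D2 CC, CS and SC, against 4 in D2 SS. The single peak in D2 CS was chr17:25418797-25419546, 17.2 kb from the 5′ end and the only Cacna1h region in all 8 lists. The start region of Cacna1h (chr17:25433620-25434433) was absent from D1 SS and D2 CS. Cacna1i (111.1 kb) had 6, 3 and 2 peaks in D1 CC, CS and SC, against 1 in D1 SS, and 4, 2 and 3 in D2 CC, CS and SC, against 3 in D2 SS. It was the 1 member with no region in all 8 lists. Its start region (chr15:80286954-80287577) was missing from D1 SC alone.

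Among the α2δ genes, Cacna2d1 (440.2 kb) held 20, 11 and 7 peaks in D1 CC, CS and SC, against 9 in D1 SS, and 21, 6 and 16 in D2 CC, CS and SC, against 18 in D2 SS. Its region chr5:16183925-16184717, which lies 250.1 kb from the 5′ end, had the highest mean percentile of all member regions, 84.9. Its fold there was 8.30, 7.48 and 7.67 in D1 CC, CS and SC, against 5.82 in D1 SS, and 7.14, 7.10 and 8.08 in D2 CC, CS and SC, against 7.14 in D2 SS. The start region of Cacna2d1 (chr5:15933835-15935517) was in all lists and ranked between percentiles 11.4 in D1 SS and 78.6 in D2 CS.

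Cacna2d3, the longest member (817.8 kb), held 34, 18 and 10 peaks in D1 CC, CS and SC, against 10 in D1 SS, and 30, 7 and 25 in D2 CC, CS and SC, against 23 in D2 SS. Per 100 kb it had the lowest median over the 8 lists, 2.50 peaks, against 5.64 for Cacna1h and 5.36 for Cacna1e at the other end. It had 6 regions in all lists, against 5 at each of Cacna1a, Cacna1e and Cacna2d1. Its start region (chr14:29721509-29722490) was 1 of these 6 and ranked between percentiles 3.72 and 27.0. Another of the 6, chr14:29722529-29723473, lies within 1 kb of that start region and was counted apart. The strongest gene body region of Cacna2d3, chr14:29539759-29540509, ranked between 29.2 and 74.8.

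Over the 10 genes, the start regions were weak for start regions. The median member peak within 1 kb of a start lay at percentile 25.2, 28.2 and 27.5 of its list in D1 CC, CS and SC, against 13.1 in D1 SS, and at 16.3, 37.8 and 34.4 in D2 CC, CS and SC, against 26.5 in D2 SS. All peaks within 1 kb of a start had medians of 61.7 to 71.0 in the same lists. Members differed: the strongest start region of Cacna1a ranked between percentiles 61.0 and 88.1 in the 8 lists, and that of Cacna2d3 between 3.72 and 27.0. Member gene body peaks had medians of 25.7 to 42.3, and all gene body peaks 39.1 to 43.0. The largest gaps for gene body peaks were 25.7 against 40.5 in D1 SS and 29.8 against 41.2 in D2 CC, while D1 CC, CS and SC lay within 1 percentile of all gene body peaks. The fold is the authors' value and is ranked here only within a list.

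**Figure D3:**
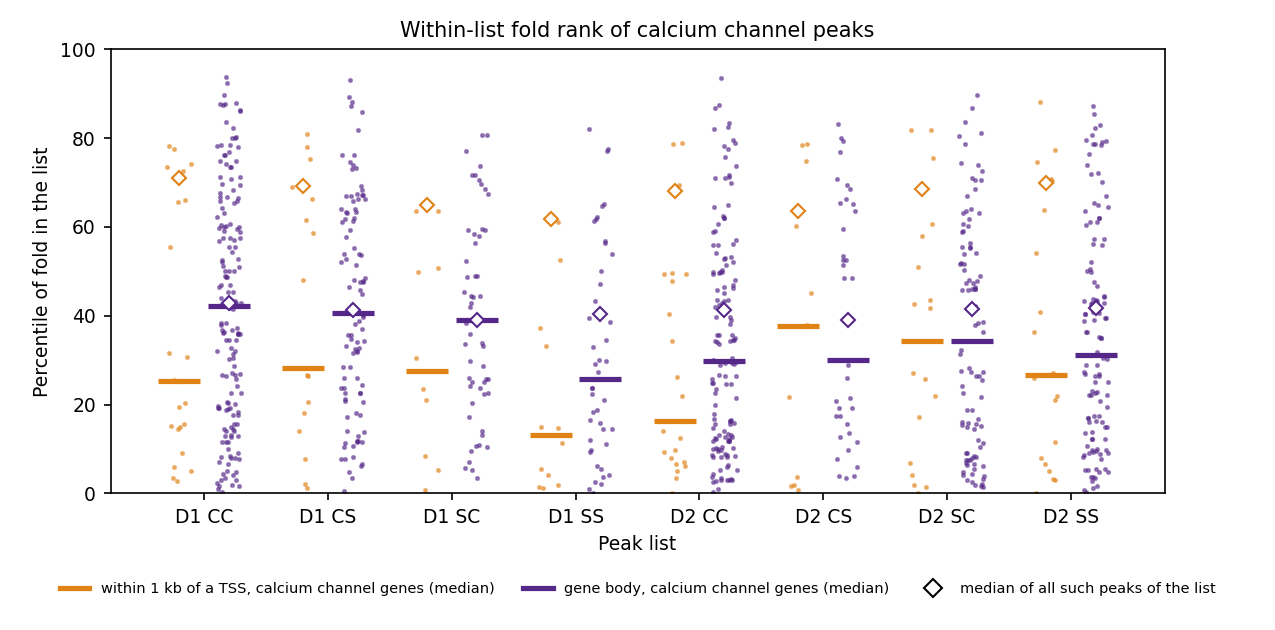
Percentile of the authors' fold enrichment within each peak list for member peaks within 1 kb of a transcription start (orange) and in the gene body (purple); each point is 1 peak, bars are member medians and open diamonds are the medians of all such peaks of the list. In every list the member median at starts lies below the diamond, at 13.1 to 37.8 against 61.7 to 71.0.

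A peak within 1 kb of a start was present at all 10 members in D1 CC, D1 CS, D2 CC, D2 SC and D2 SS. In D1 SC it was present at 7, without Cacna1d, Cacna1e and Cacna1i, in D1 SS at 7, without Cacna1d, Cacna1e and Cacna1h, and in D2 CS at 8, without Cacna1d and Cacna1h. Of all 14548 genes, 80.8%, 77.2% and 67.7% had such a peak in D1 CC, CS and SC, against 58.7% in D1 SS, and 74.2%, 69.6% and 71.7% in D2 CC, CS and SC, against 73.9% in D2 SS. In the lists as deposited, the counts of 7, 7 and 8 members in the 3 shortest lists lie close to these shares. With lists cut to equal length, the members with such a peak numbered 6, 8 and 7 in D1 CC, CS and SC, against 7 in D1 SS. In D2 they numbered 4, 8 and 6 in CC, CS and SC, against 5 in SS. No share of all genes is given for the cut lists, so those counts have no background.

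Of the 221 merged regions, 32 lay in all 8 lists, which is 14.5% (10.1 to 19.8%), against 18.2% of all regions. Gene body regions did so in 23 of 186 cases, 12.4% (8.0 to 18.0%), against 9.72% of all. Regions at starts did so in 8 of 25 cases, 32.0% (14.9 to 53.5%), against 49% of all. Among the 8 start regions held by every list, the median of their median percentiles was 60.4, against 81.5 for all such regions. Among the 23 gene body regions it was 65.4, against 72.7.

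A further 51 regions, 23.1%, were in 1 list, against 26.7% of all, and 29 of these were in D1 CC, the longest list. In the 5 longer lists and in none of the 3 shorter ones were 18 regions, 8.14% against 5.02% of all. They included 5 at Cacna1d and 4 at Cacna1e, and 0 at Cacna1b, Cacna1g and Cacna1h. These regions separate the lists by length, and group and list length cannot be told apart for them. Gene body regions made up 186 of the 221 member regions and 37895 of all 94493. The shares above were not matched for region class, and its part in them was not tested.

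No member region was held by every D1 list and no D2 list, or by every D2 list and no D1 list. Across the series, 5 and 35 of the 94493 regions were. In 2 or more D1 lists and no D2 list were 9 member regions, 4.07%, against 2.84% of all regions, and 3 of them lay in Cacna1d (chr14:30258122-30258636, chr14:30284360-30284676 and chr14:30343638-30343891, each in D1 CC and D1 CS). In 2 or more D2 lists and no D1 list were 5, 2.26%, against 8.22% of all. In exactly D2 CC, D2 SC and D2 SS were 3, 1.36%, against 4.07% of all regions: chr1:154696129-154696887 in Cacna1e, chr14:29274328-29274902 in Cacna2d3 and chr6:118704815-118705320 assigned to Cacna1c. Those 3 D2 lists belong to the same technical set, as do D1 CC and D1 CS. Here too the shares were not matched for region class, and its part in them was not tested.

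The share of a list's peaks that lay at the 10 genes was 0.257% (0.222 to 0.295%) in D1 CC, 0.256% (0.213 to 0.305%) in D1 CS and 0.251% (0.196 to 0.316%) in D1 SC, against 0.206% (0.157 to 0.266%) in D1 SS. In D2 it was 0.250% (0.214 to 0.290%) in CC, 0.190% (0.142 to 0.248%) in CS and 0.211% (0.175 to 0.251%) in SC, against 0.233% (0.196 to 0.274%) in D2 SS. In none of the 16 comparisons did the interval of the log2 ratio of shares leave out 0. With every list cut to its strongest 27917 peaks, D2 CC over D2 SS, D2 SC and D2 CS and D1 SS over D2 SS were among the ratios that turned direction. As a share of gene body peaks alone, an alternative chosen after seeing the data, D1 CC lay below D1 SC (log2 ratio -0.50, -0.94 to -0.04) and D1 SC above D2 SC (0.77, 0.27 to 1.25). D1 SC and D2 SC belong to different technical sets. The 71 member peaks of D1 SC fell into 64 regions, the 124 of D2 SC into 120 and the 198 of D1 CC into 191. By covered bp of all peaks, the log2 ratio was 0.34 for D1 CC over D1 SC and 0.03 for D1 SC over D2 SC. The number of member peaks was lowest, 53, in D2 CS, the shortest list, and highest, 198, in D1 CC, the longest, but D1 CS with 48469 peaks and D2 SC with 58810 both held 124.

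**Figure D4:**
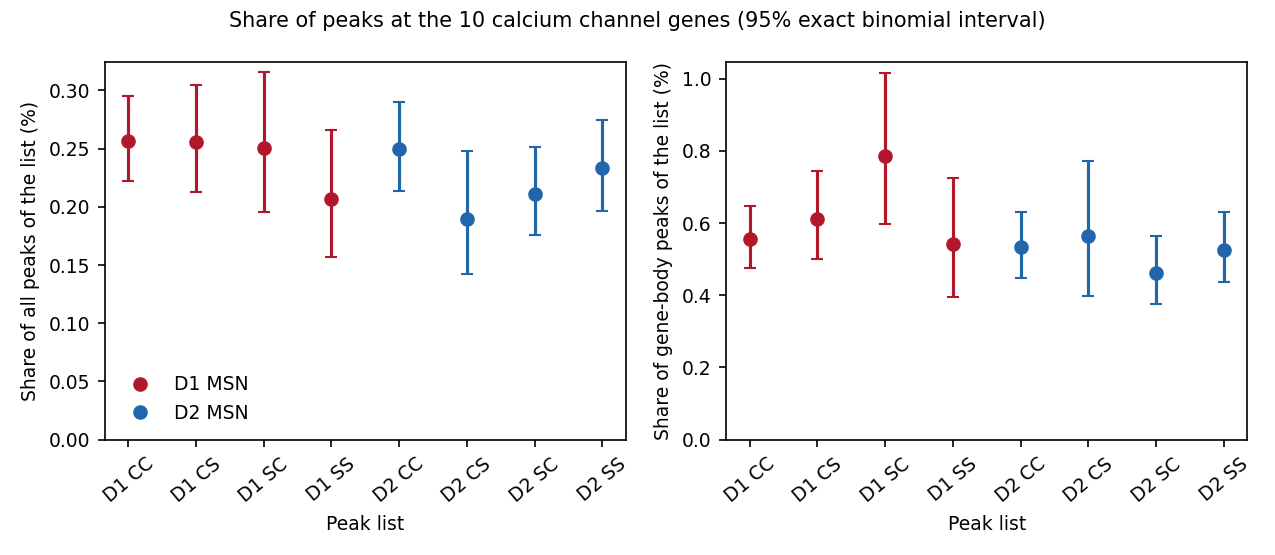
Share of each list's peaks (left) and of its gene body peaks (right), in percent, that were assigned to the 10 calcium channel genes; points are lists, red for D1 and blue for D2, and bars are exact 95% binomial intervals that cover counting error only. The shares of all peaks lie between 0.190 and 0.257% with overlapping intervals, and the highest share of gene body peaks is that of D1 SC, 0.787%.

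Long genes hold more gene body peaks, so density was set beside that of all genes of at least 100 kb. Length was not matched beyond this limit, and the members past it span 111.1 to 817.8 kb. The 8 members of at least 100 kb had a median of 5.47, 3.60 and 2.05 peaks per 100 kb in D1 CC, CS and SC, against 1.63 in D1 SS, and 4.71, 1.58 and 3.35 in D2 CC, CS and SC, against 3.76 in D2 SS. Over all 2428 such genes the medians were 3.52, 1.95 and 0.945 in D1 CC, CS and SC, against 0.993 in D1 SS, and 2.95, 0.939 and 2.50 in D2 CC, CS and SC, against 2.68 in D2 SS. The member median was the higher in every list. The upper quartiles of all such genes were 5.66, 3.49 and 1.89 in D1 CC, CS and SC, against 1.94 in D1 SS. In D2 they were 4.79, 1.83 and 4.08 in CC, CS and SC, against 4.27 in SS. The member median was above the upper quartile in D1 CS and D1 SC alone.

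Among the D1 lists of the same technical set, covered bases were compared gene by gene as a share of the list's total, with a pseudocount of 200 bp, and a member was counted when its share differed by more than 1.5 times. For relapse over acute cocaine, Cacna1d (13778 bp in D1 CC, 1307 bp in D1 SC, log2 ratio 1.60) and Cacna1i (3555 and 451 bp, 0.92) had higher shares in D1 CC. Cacna1a had a lower one (9292 and 4475 bp, -0.59). Of all genes 12.2% were higher and 50.9% lower, and of genes of at least 100 kb called long genes below, 24.5% were higher and 14.9% lower. The members' counts, 2 higher and 1 lower, lie near the long-gene background, and were 1 and 2 with a pseudocount of 1000 bp. Cacna1d alone was then higher, the ratio of Cacna1i was 0.04, and Cacna1g (-0.77) was lower beside Cacna1a. Shares of all genes are given for 200 bp alone, so the counts with 1000 bp, here and below, have no background.

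For relapse over withdrawal in D1, 0 members were past 1.5-fold in either direction, against 9.32% of genes higher and 32.4% lower (13.9% and 6.02% of long genes). The log2 ratios ran from -0.28 for Cacna1a to 0.46 for Cacna1i. For withdrawal over acute cocaine, Cacna1d was higher (6865 bp in D1 CS, 1307 bp in D1 SC, 1.38) and Cacna1g lower (1240 and 1045 bp, -0.64), against 14% of genes higher and 32.9% lower (17.2% and 11% of long genes). Both comparisons with D1 SC thus set Cacna1d apart in the same direction, and they share that list. In D1 SC the member peaks were narrow, with a median width of 286 bp against 489 bp for all its peaks, and its 71 member peaks fell into 64 regions. Every list had fewer member regions than member peaks, such as 161 for 171 in D2 CC and 191 for 198 in D1 CC. Gene body peaks made up 81.7% of the member peaks of D1 SC and 26.0% of the whole list. Widths were not matched for peak class. In the other lists the median widths were 436 to 562 bp for members and 455 to 563 bp for all peaks.

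Baseline D1 belongs to the other technical set, so the next comparisons cannot separate state from set. In acute cocaine over baseline, 3 members were higher (Cacna1a, Cacna1c and Cacna1h) and 0 lower, against 26.4% and 10.4% of genes (16.7% and 20% of long genes). In withdrawal over baseline, 4 were higher (Cacna1c, Cacna1d, Cacna1h and Cacna1i) and 1, Cacna2d1, lower, against 24.4% and 21.2% of genes (22.1% and 20.8% of long genes). In relapse over baseline, the same 4 were higher and 0 lower, against 18.9% and 39.7% of genes (23.9% and 18.2% of long genes). When the pseudocount was 1000 bp, Cacna1c alone was higher in acute cocaine, and Cacna1c and Cacna1d alone were higher in withdrawal and in relapse. Cacna1g was then lower in withdrawal, beside Cacna2d1, and in relapse. The log2 ratios of Cacna1c were 1.41 for CC, 1.43 for CS and 1.14 for SC over D1 SS. These 3 comparisons share the D1 SS list, in which Cacna1c had 7 peaks.

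In D2 MSNs, the lists of CC, SC and SS belong to the same technical set. Between any pair of them, at most 9.85% of genes were past 1.5-fold in a single direction. For acute cocaine over baseline, 0 members were past 1.5-fold, against 5.81% of genes higher and 9.67% lower (2.91% and 5.19% of long genes). For relapse over baseline, Cacna1b was higher (5067 bp in D2 CC, 2895 bp in D2 SS, log2 ratio 0.59) and 0 were lower, against 7.43% and 6.74% of genes (3.79% and 2.85% of long genes). With a pseudocount of 1000 bp 0 were higher. In acute cocaine Cacna1b lay just inside the limit (4074 bp in D2 SC, 2895 bp in D2 SS, 0.58). For relapse over acute cocaine, 0 members were past the limit, against 9.85% of genes higher and 5.22% lower (5.5% and 2.14% of long genes), and the highest ratio was that of Cacna1c (15424 and 8819 bp, 0.50).

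D2 CS belongs to the other set and is the shortest list. Over D2 SS, 3 members were higher in D2 CS (Cacna1a, Cacna1b and Cacna1g) and 2 lower (Cacna1c and Cacna1e), against 57.2% and 11.1% of genes (21.2% and 26.2% of long genes). Over D2 SC, Cacna1b and Cacna1g were higher and Cacna1c and Cacna2d3 lower, against 58% and 11.9% of genes (22% and 26.7% of long genes). Over D2 SS, Cacna1i was also higher and Cacna1e no longer lower when the pseudocount was 1000 bp. Over D2 SC, Cacna1a and Cacna1i were then also higher and 0 members were lower. In D2 CC over D2 CS, 4 were higher (Cacna1c, Cacna1e, Cacna1h and Cacna2d3) and 3 lower (Cacna1a, Cacna1b and Cacna1g), against 10.3% and 58.1%. Among genes of at least 100 kb, 26% were higher and 20.4% lower in that pair, and with a pseudocount of 1000 bp Cacna1c alone was higher and Cacna1i was also lower.

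D1 and D2 MSNs were compared within each state, in the same technical set for CS and SS alone. In withdrawal, 5 members had a higher share in D1 CS than in D2 CS and 1, Cacna1g, a lower one, against 14% of genes higher and 37.1% lower (17.9% and 14.4% of long genes). With a pseudocount of 1000 bp 2 were higher, Cacna1c and Cacna1d. Cacna1c covered 10187 bp in D1 CS and 2210 bp in D2 CS (log2 ratio 1.25), and Cacna1d 6865 and 1854 bp (0.92). Cacna1h covered 1955 and 436 bp (0.90), Cacna1e 12459 and 3990 bp (0.73) and Cacna2d3 8364 and 2937 bp (0.59). Cacna1h had 1 peak in D2 CS. With a pseudocount of 1000 bp the ratios of Cacna1h, Cacna1e and Cacna2d3 were 0.18, 0.57 and 0.39, and those of Cacna1c and Cacna1d 0.94 and 0.60. The D1 CS list has 48469 peaks and the D2 CS list 27917, and of the 124 member peaks of D1 CS, 36.3% (27.8 to 45.4%) were found in D2 CS, against 50.2% of all D1 CS peaks. Of the 53 member peaks of D2 CS, 90.6% (79.3 to 96.9%) were found in D1 CS, against 93.7% of all. Gene body peaks made up 81.5% of the member peaks of D1 CS and 34.0% of the whole list. In D2 CS they made up 71.7% and 24.2%. The found shares were not matched for this, and the part of peak class in them was not tested.

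At baseline Cacna1b had a higher share in D1 SS than in D2 SS (1975 and 2895 bp, 0.78), and Cacna1c (2003 and 11517 bp, -1.12) and Cacna1d (1859 and 7491 bp, -0.62) lower ones, against 41.7% of genes higher and 15.8% lower (13.9% and 19.9% of long genes). When the pseudocount was 1000 bp, Cacna1g was also higher and Cacna1d no longer lower (-0.28). Cacna1c and Cacna1d thus had opposite signs in D1 over D2 at baseline and in withdrawal, and the shorter list had the lower share in both. The difference between the states was not tested. In acute cocaine, across sets, 3 members were higher in D1 SC (Cacna1a, Cacna1g and Cacna1h) and 1, Cacna1d, lower, against 56.1% and 12.2% of genes (19.3% and 26% of long genes), and with a pseudocount of 1000 bp Cacna1i was also higher and 0 were lower. In relapse, also across sets, Cacna1d, Cacna1g and Cacna1i were higher in D1 CC and 0 lower, against 18.7% and 6.84% of genes (13.5% and 9.46% of long genes), and Cacna1g was not past the limit with a pseudocount of 1000 bp.

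Some strong member peaks had no counterpart in another list of the same set. The highest fold of these was at Cacna2d1, chr5:16047295-16048049 in the gene body, with 8.61 in D1 CC (percentile 93.8) and no peak in D1 CS and D1 SC. The same region had a fold of 3.12 in D1 SS, and of 3.21 and 3.28 in D2 CC and D2 SC, against 3.64 in D2 SS, all at percentile 28.8 or lower. In Cacna1e, chr1:154688868-154689799 had a fold of 8.30 in D1 CS (percentile 93.0) and no peak in D2 CS. It was also held by D1 CC and D1 SC (6.85 and 6.46) and by D2 CC, D2 SC and D2 SS (4.39, 4.68 and 3.89), and not by D1 SS. Of the D1 CC member peaks, 127 (64.1%) had no D1 SC peak within 1 kb and 72 (36.4%) no D1 CS peak, against 63.1% and 39.8% of all D1 CC peaks. The other way, 0 of the D1 SC member peaks had no D1 CC peak within 1 kb, and 4 (3.23%) of the D1 CS ones, against 0.724% and 4.38% of all. Of the D1 CS member peaks, 64 (51.6%) had no D1 SC peak within 1 kb, against 42.3% of all D1 CS peaks. Of the D1 SC ones, 4 (5.63%) had no D1 CS peak, against 3.92% of all. Within D2, 35 (20.5%) of the D2 CC member peaks had no D2 SS peak within 1 kb, against 16.9% of all D2 CC peaks, and 14 (9.72%) of the D2 SS ones had no D2 CC peak, against 8.59% of all. For acute cocaine, 11 (8.87%) of the D2 SC member peaks had no D2 SS peak, against 10.7% of all, and 29 (20.1%) of the D2 SS ones had no D2 SC peak, against 15.0% of all. Gene body peaks made up 83.8% of the member peaks of D1 CC and 38.8% of the whole list. The shares without a counterpart were not matched for peak class, and its part in them was not tested. The highest folds among the D2 CC and D2 SC peaks with none in D2 SS were 4.26 at Cacna2d1 (chr5:16136038-16136383, in no other list) and 4.04 at Cacna2d3 (chr14:29519966-29520495).

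The other calcium channel subunit genes were counted from a list of 16, chosen by name. Of these, 9 had a peak in all 8 lists, and Cacng6 had none in any. No share of all genes is given for a peak in all 8 lists or in none, so the counts over lists have no background. A peak within 1 kb of a start was present in all 8 lists at Cacna2d2, which encodes another α2δ subunit, at Cacnb2, Cacnb3 and Cacnb4, which encode β subunits, and at Cacng4, which encodes a γ-family protein that traffics AMPA receptors. Cacnb1 and Cacng3 had one in all lists except D1 SS. Cacna2d4 had one in 5 lists, Cacng2 in D1 CC and D2 SC, and Cacng7 in D1 CC and D1 CS. Cacna1f and Cacna1s, the L-type pore genes of retina and skeletal muscle, Cacng1, which encodes the γ subunit of skeletal muscle, and Cacng5, Cacng6 and Cacng8 had none in any list. List by list, 9, 9 and 8 of the 16 had a peak within 1 kb of a start in D1 CC, CS and SC, against 6 in D1 SS. In D2 they numbered 8, 7 and 8 in CC, CS and SC, against 8 in SS. Of all 14548 genes with a peak in at least 1 list, 58.7% in D1 SS to 80.8% in D1 CC had one.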

How the data were processed

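The data are 8 lists of ATAC-seq peaks, 1 per group, from 26 libraries of MSN nuclei. Per the submitters' processing notes, the build was mm10 and the tools were MACS2, SAMtools, HISAT and cutadapt, with neither version nor role given. Whether libraries were pooled before calling is not stated. The fold enrichment, a ratio over the caller's background, and the q-value of each peak were deposited by the authors, as were the gene and the distance in bp from its transcription start. Lists hold no read totals and 0 columns per library, so no p-value and no paired comparison could be had.

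Peaks on the standard chromosomes were taken by the authors' gene name and merged across lists where they shared at least 1 bp. Gene lengths and start sequences came from RefSeq tables. Intervals of shares are Clopper-Pearson, and those of ratios are exact conditional binomial intervals, at 95% confidence. Background for a comparison is every gene with a peak in either list. Named were all members, each member's strongest start and gene body region by mean percentile, regions that separate cell types, and in each pair of lists of the same set the 3 strongest member peaks with none of the other list within 1 kb. Technical sets were assigned from patch scaffold peaks. Members and lists were chosen with earlier results of these data known. Further regions in the text were chosen after their values were seen. The steps were tested on simulated data. Software was scipy 1.17.1, pandas 2.3.3 and numpy 2.4.6 under Python 3.11.15, with matplotlib 3.10.9 for figures. Results under the alternatives follow in the closing section.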

Additional observations from a re-analysis of the deposited data

Results flagged for a closer look

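At 3 members the same contrast had opposite signs past 1.5-fold in different groups, among 120 checks (10 genes in 12 pairs of comparisons). The differences themselves were not tested, the values are log2 ratios of the share of covered bp, and the part of list length and technical set in them was not tested. For Cacna1c, withdrawal over baseline was 1.43 in D1 and -0.95 in D2, and D1 over D2 was 1.25 in withdrawal and -1.12 at baseline. For Cacna1d, D1 over D2 was 0.70 in relapse and 0.92 in withdrawal, but -0.60 in acute cocaine and -0.62 at baseline. For Cacna1g, withdrawal over acute cocaine was -0.64 in D1 and 0.78 in D2, and D1 over D2 was 0.59 in relapse, -0.63 in withdrawal and 0.78 in acute cocaine. With a pseudocount of 1000 bp the negative values of Cacna1d were -0.19 in acute cocaine and -0.28 at baseline, and Cacna1g was 0.40 in relapse, so these were no longer past 1.5-fold. Where Cacna1c and Cacna1d differed so, the list with fewer peaks in all had the lower share. Cacna1g has 2 to 5 peaks a list. It had 2 in each of D1 CS, D1 SC and D2 CS, which covered 1240, 1045 and 1027 bp. Those lists cover 24.9, 13.9 and 13.7 Mb in all.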

How the results depend on the processing

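No paired analysis was possible because each group has 1 list and no column per library. For the same reason no library was left out. No share ratio was called, and several uncalled ones turned direction, as given below. With peaks taken by coordinates (gene body plus 5 kb), the share of covered bp, a promoter limit of 3000 bp or merging within 1 kb, the values stayed within the counting interval or within 1.5 times the count.

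With peaks of at least 6-fold alone, the log2 share ratios were 3.07, 2.65 and 2.99 for D1 SC, CS and CC over D1 SS, which then had 1 such member peak, and 0.34 for D1 CC over CS and -0.43 for D1 CS over SC. In D2 they were 0.48 for CS over SS, -0.25 for CC over SS, -0.19 for CC over SC, -0.73 for CC over CS and 0.54 for CS over SC. For D1 over D2 they were -2.35 in SS, 0.79 in SC, -0.18 in CS and 0.89 in CC. With lists cut to the strongest 27917 peaks, the ratios were 0.37 for D2 CS over SS, -0.23 for D2 CC over SS, -0.30 for CC over SC and -0.60 for CC over CS, and 0.45 in SS, 0.68 in SC and 0.70 in CC for D1 over D2. The shares were then 0.204% in D1 CC, 0.125% in D2 CC, 0.154% in D2 SC and 0.147% in D2 SS. Members with a peak within 1 kb of a start numbered 6, 4, 6 and 5 in these lists, with no share of all genes given for the cut lists. As a share of gene body peaks, an alternative chosen after seeing the data, the ratio was -0.50 (-0.94 to -0.04) for D1 CC over SC, -0.078 for D2 CC over CS and 0.77 (0.27 to 1.25) for D1 over D2 in SC. Both D2 CC over CS and D1 over D2 in SC are across technical sets. With a promoter limit of 250 bp, 6 members had a peak in D1 CS.

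With a pseudocount of 1000 bp, members past 1.5-fold numbered 1 higher for D1 SC over SS, 2 higher and 2 lower for D1 CS over SS, 2 higher and 1 lower for D1 CC over SS, and 1 higher and 2 lower for D1 CC over SC. In D2 they numbered 1 lower for CS over SS, 0 higher for CC over SS, 1 higher for CC over CS, and 4 higher and 0 lower for CS over SC. For D1 over D2 they numbered 2 higher and 1 lower in SS, 0 lower in SC and 2 higher in CS. Shares of all genes are given for a pseudocount of 200 bp alone, so these counts have no background. With a q-value of at most 1e-05, 21 member regions lay in all lists, 11.1% of 190, against 17.9% of all. The cause of these moves was not tested. Depth per list is unknown from these files.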
